A study of Mus musculus with 4 samples.

Results

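The genes described here encode the enzymes that write and erase methyl and acetyl marks on chromatin. They were taken by gene symbol, as all Hdac, Sirt, Kdm, Kmt and Setd genes together with Ezh1, Ezh2, the 3 DNA methyltransferase genes and the 3 Tet genes, and 59 of the 16051 genes in the deposited expression table met this rule. Of these 59 genes, 51 had a mean of at least 1 FPKM (read fragments scaled by transcript length and by library depth) over the libraries and were tested. Differentiated 3T3-L1 cells, a mouse embryonic fibroblast line that is induced to form adipocytes in culture, were exposed for 48 h to 100 µM risperidone, an antipsychotic drug, or to its vehicle DMSO, and mRNA was sequenced (n = 2 libraries per treatment). All cells came from this line, of NIH SWISS origin, and the labels name no genetic change. The RNA of 3 cultures was pooled for each library, and variation among single cultures was therefore not measured. In the labels the controls are untreated and embryo and retina are mentioned, whereas the paper describes DMSO as the control and gives no retina.

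Histone deacetylases remove acetyl groups from lysines, either with a zinc ion (the Hdac classes) or with NAD as a co-substrate (the sirtuins), and most nuclear members work inside corepressor complexes. Histone methyltransferases use S-adenosylmethionine to add methyl groups, and the demethylases remove them by oxidation, with flavin in the Kdm1 enzymes and with iron and 2-oxoglutarate in the Jumonji enzymes. Dnmt enzymes methylate cytosine in DNA and Tet enzymes oxidise the methyl group. During adipocyte formation these enzymes act at the genes and enhancers controlled by PPARγ and the C/EBP factors, where Hdac3 with its corepressors, the H3K4 methyltransferases Kmt2c and Kmt2d and the H3K9 demethylase Kdm3a are known players.

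The libraries held between 15883712 and 16374119 counts, and a count of 0 allowed up to 3 counts, or 0.183 to 0.189 CPM (counts scaled by library depth), which covers counting error only. Fibroblast markers were present in every library, with all 10 detected and a summed level of 3059.6 to 3201.2 FPKM. Of 14 adipocyte markers, 7 or 8 were under 0.5 FPKM in each library. Adipoq, Cebpa, Cfd and Slc2a4 were among those at or near 0, while Fabp4, Lpl, Plin4 and Pparg were present. The summed level of the adipocyte list was 484 and 541 FPKM with DMSO and 353 and 368 FPKM with risperidone, and the part of this difference in the results below was not tested. In bulk RNA, fewer cells of a type and less RNA per cell cannot be told apart. In risperidone replicate 2, 18 kidney markers summed to 227 FPKM, against 2.35 to 3.21 FPKM in the other libraries. Without that library 11 of the enzyme genes were higher and 26 were lower, which are the same numbers as with it. The retina list, with 6 genes in the table, summed to 0.86 to 1.28 FPKM.

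Transcripts of the chromatin enzymes were more often lower than higher after risperidone. Of the 51 genes tested, 26 (51.0%) fell and 11 (21.6%) rose at an adjusted p under 0.05, and 14 did not pass the test. Among all 10243 genes tested, 32.2% were lower and 32.1% were higher. The median log2 fold change was -0.16 over the enzymes and 0.00044 over all genes. The FPKM values of the treatments did not overlap for 46 of the 51 enzymes, where 82.2% of all genes showed no overlap. A log2 change of 1 or more in size was seen for Setd6 among the genes that rose and for Hdac1, Kmt5b and Kmt2e among those that fell (4 of 51), against 6.52% of all genes in either direction. Just under this limit were Tet3 (-0.998) and Setd1b (-0.98). These shares depended on scaling. With limma on TPM, which moved the median of all genes to -0.22, 35 of the enzymes were lower and 7 were higher (median -0.41), beside 51.7% and 15.0% of all genes. With offsets for transcript length, 23 were lower and 13 were higher (median -0.065), beside 31.9% and 33.4% of all genes. Summed over all 59 genes, the level was 1080.5 and 1069.6 FPKM with DMSO and 931.9 and 949.8 FPKM with risperidone, a ratio of 0.875.

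**Figure D1:**
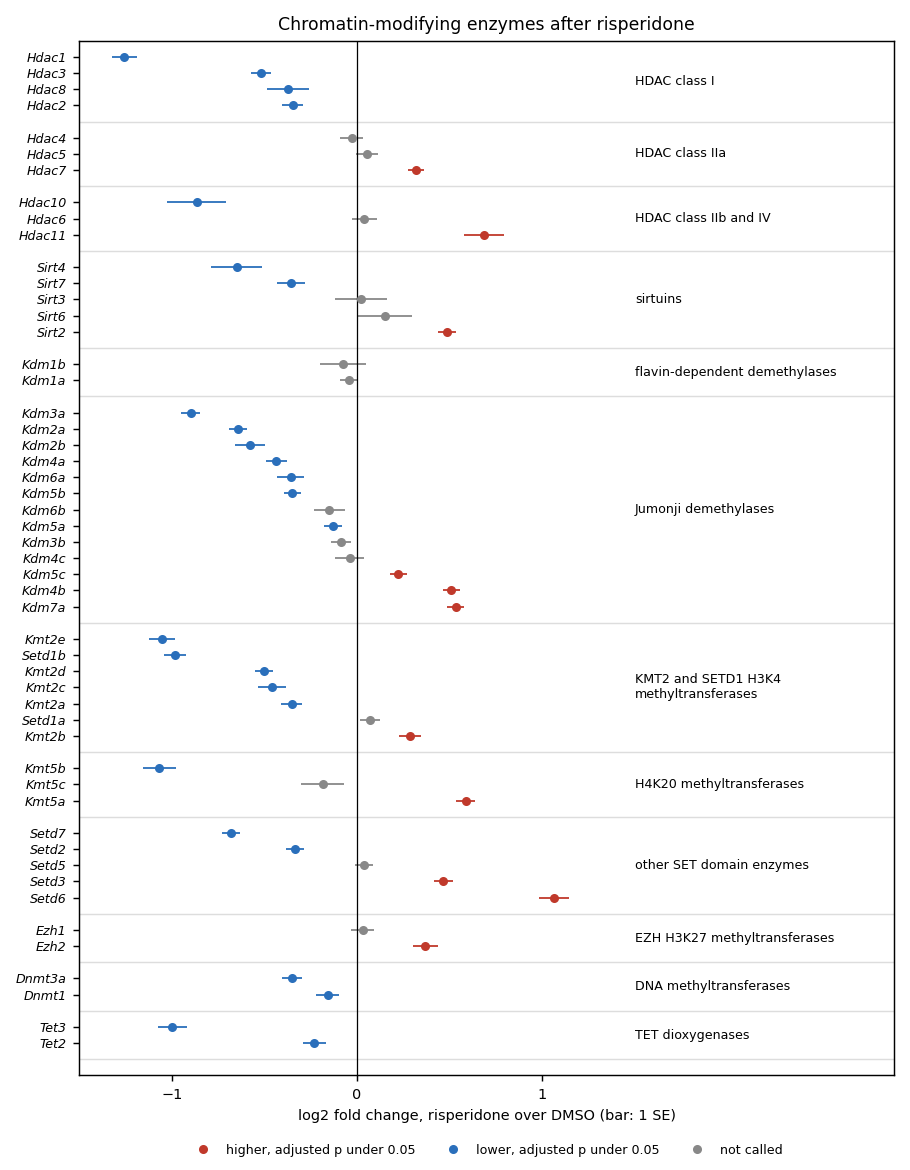
Log2 fold change of each of the 51 enzyme genes tested (risperidone over DMSO, TMM-normalised counts, bars 1 SE from edgeR), grouped by enzyme class. Red points are the 11 genes that rose, blue points the 26 that fell and grey points the 14 that did not pass the test, and all 4 class I deacetylases lie on the lower side.

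Fold changes below are log2 values of risperidone over DMSO from TMM-normalised counts, and adjusted p-values are those of the quasi-likelihood test in edgeR, corrected over all 10243 genes by the Benjamini-Hochberg method. Levels are FPKM, given as DMSO replicates 1 and 2 and then risperidone replicates 1 and 2. For the enzymes described for their large changes, a lack of overlap was a condition of choice. It was shown by 82.2% of all genes. On the log2(FPKM + 1) scale the median of all genes was -0.08, so a ratio of FPKM values reads lower than the fold change. With limma on TPM, where that median was -0.22, rises were smaller and falls larger. For example, Hdac2, Sirt7, Kdm5b and Kdm6a were at -0.58, -0.61, -0.58 and -0.57 there. Of the 37 genes that rose or fell, 29 kept their call and direction under each of 16 other settings that tested them, where Hdac10, Kmt2c and Setd1b were tested in 15 since they lie under the limit of 5 FPKM in the remaining setting. The other 8 (Hdac7, Hdac8, Kdm5a, Kdm5c, Kmt2b, Ezh2, Dnmt1 and Tet2) are marked below.

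For 40 of the 51 genes a promoter window was found in RefSeq (build GRCm38.p6), with 59 windows in all since some genes have several starts. Shown here are the 250 bases before the start of the 5 changed genes with a single window that adjoins the outer end of the annotated gene, of which Kdm7a and Sirt2 rose and Setd7, Sirt7 and Kdm5b fell. Capitals mark the GC box GGGCGG on either strand, the letters bound by Sp1-type factors. The sequences run 5′ to 3′ on the strand of the gene.
Kdm7a, chr6:39206774-39207023, minus strand: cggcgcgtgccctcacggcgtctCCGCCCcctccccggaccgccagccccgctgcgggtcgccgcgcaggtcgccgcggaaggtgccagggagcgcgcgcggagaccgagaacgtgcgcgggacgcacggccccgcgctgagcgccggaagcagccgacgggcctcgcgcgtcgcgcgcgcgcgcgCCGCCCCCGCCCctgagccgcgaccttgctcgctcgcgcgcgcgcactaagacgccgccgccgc
Sirt2, chr7:28766502-28766751, plus strand: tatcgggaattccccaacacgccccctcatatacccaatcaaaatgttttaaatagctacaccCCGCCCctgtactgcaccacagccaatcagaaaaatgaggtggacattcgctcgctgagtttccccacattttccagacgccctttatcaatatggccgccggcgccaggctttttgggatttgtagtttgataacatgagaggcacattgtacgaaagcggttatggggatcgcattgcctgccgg
Setd7, chr3:51560824-51561073, minus strand: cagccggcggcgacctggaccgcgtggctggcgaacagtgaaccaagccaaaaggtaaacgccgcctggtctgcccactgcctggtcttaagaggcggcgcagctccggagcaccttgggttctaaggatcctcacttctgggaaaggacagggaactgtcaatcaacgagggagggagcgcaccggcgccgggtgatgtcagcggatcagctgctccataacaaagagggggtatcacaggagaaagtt
Sirt7, chr11:120625015-120625264, minus strand: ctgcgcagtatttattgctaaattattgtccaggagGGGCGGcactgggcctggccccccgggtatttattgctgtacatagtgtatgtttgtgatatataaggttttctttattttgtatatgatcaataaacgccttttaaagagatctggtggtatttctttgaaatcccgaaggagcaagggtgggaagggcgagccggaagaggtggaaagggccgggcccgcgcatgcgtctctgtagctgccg
Kdm5b, chr1:134559928-134560177, plus strand: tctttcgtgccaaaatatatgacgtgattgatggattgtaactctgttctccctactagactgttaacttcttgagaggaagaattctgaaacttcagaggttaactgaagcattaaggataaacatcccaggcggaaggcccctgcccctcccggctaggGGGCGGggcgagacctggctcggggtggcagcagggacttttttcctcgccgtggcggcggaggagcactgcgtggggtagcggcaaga
The Kdm7a window was 82.0% G or C and held 3 GC boxes, while the Sirt2 window held 1. Among the genes that fell, the Setd7 window held no GC box at 60.4% G or C, and the windows of Sirt7 (48.8% G or C) and Kdm5b (54.4%) held 1 each. A GC box was present in 37 of the 59 windows (62.7%), against 59.4% of the 10639 windows of all tested genes and 32.7% of all 32851 windows. It was in 10 of 15 windows of genes that rose and in 21 of 29 windows of genes that fell. Windows of the same gene can overlap and share boxes, as for Setd3 and Kdm2b, so windows are not separate genes. Hdac1, Kmt2e and Setd1b, which fell strongly, had no window. TGACGTCA, the full cyclic AMP response element, was in 0 of the 59 windows and in 2.65% of the windows of tested genes. The E2F letters TTTGGCGC, TTTCCCGC and TTTCGCGC were in 0, 2 and 1 windows and the E-box CACGTG in 3. Such matches describe letters and do not show that a factor was bound.

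The class I deacetylases were all lower after risperidone. Hdac1 (chr4:129516104-129542646 in RefSeq's GRCm38.p6 annotation), a catalytic subunit of the Sin3, NuRD and CoREST complexes, was at 47.1 and 48.03 FPKM with DMSO and at 17.8 and 19.4 FPKM with risperidone. Both risperidone libraries lay far below both DMSO libraries. It fell by 1.26 on the log2 scale (SE 0.068, adjusted p = 1.17e-07), or 2.39-fold, the largest change among the 51 enzymes, and leaving out any library kept it between -1.32 and -1.20. Transcripts of Gm10093, AC125456.1 and Gm4864 match Hdac1 over 1444, 1450 and 1469 bases at 99.4%, 96.3% and 94.5% identity, so how its reads were assigned is uncertain.

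Hdac3, the deacetylase of the Ncor1 corepressor complex, was the most abundant class I member, at 54.9 and 57.4 FPKM and then 35.8 and 37.4 FPKM. Its treatments did not overlap, and it fell by 0.52 (SE 0.056, adjusted p = 1.42e-05). Hdac2, the close relative of Hdac1 in the same complexes, was at 49.4 and 49.0 FPKM and then 35.1 and 37.2 FPKM, and fell by 0.35 (SE 0.058, adjusted p = 0.000349). Hdac8, which works outside these complexes, was at 9.20 and 10.4 FPKM and then 7.12 and 7.29 FPKM. Its fall of 0.37 (SE 0.114, adjusted p = 0.0143) did not pass without DMSO replicate 2 or with DESeq2. In DMSO the levels of Hdac1, Hdac2 and Hdac3 lay within 47.1 to 57.4 FPKM. With risperidone Hdac2 and Hdac3 stayed close together and Hdac1 lay below both. Summed over the class, the level was 161 and 165 FPKM with DMSO and 95.8 and 101 FPKM with risperidone, a ratio of 0.606.

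**Figure D2:**
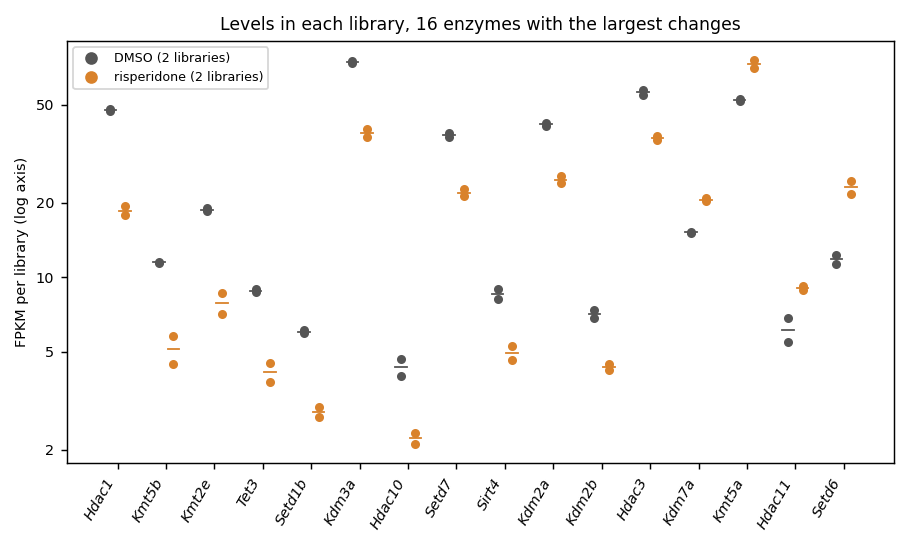
FPKM in each library (log axis) of the 16 enzyme genes with the largest absolute fold changes, ordered from the largest fall to the largest rise. Grey points are the 2 DMSO libraries, orange points the 2 risperidone libraries and short lines their means. No gene shows overlapping treatments, which choosing by size of change favours, and 82.2% of all tested genes showed no overlap.

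Class IIa deacetylases shuttle between nucleus and cytoplasm and bind MEF2 transcription factors. Hdac7, the most abundant of them, was at 40.3 and 40.9 FPKM with DMSO and at 47.3 and 47.0 FPKM with risperidone. It was above DMSO in both libraries and rose by 0.32 (SE 0.044, adjusted p = 8.93e-05), although with limma on TPM the difference was 0.073 and did not pass. Hdac4, at 3.86 to 4.37 FPKM, and Hdac5, at 19.2 to 20.2 FPKM, differed by -0.03 and 0.05 and did not pass the test. The sign of Hdac4 turned without DMSO replicate 1 or risperidone replicate 2 and with offsets for length, and Hdac5 passed as lower with limma on TPM (-0.19). Hdac9 had 0 to 2 counts per library, under the limit that a count of 0 allows.

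Among the class IIb and IV enzymes, Hdac10, a polyamine deacetylase, was at 3.99 and 4.69 FPKM and then 2.11 and 2.35 FPKM. The risperidone libraries were both lower, and the fall was 0.87 (SE 0.160, adjusted p = 0.000695). Hdac11, the single class IV member, removes fatty acyl groups from lysines and went the other way, from 5.46 and 6.83 FPKM to 8.91 and 9.22 FPKM. It rose by 0.69 (SE 0.107, adjusted p = 0.000206). With limma on TPM the rise of Hdac11 was 0.40. Hdac6, the tubulin deacetylase, had the highest level of these 3 enzymes at 13.7 to 14.7 FPKM, and its treatments overlapped (0.04, adjusted p = 0.625). It turned to -0.19 with limma on TPM and passed there as lower.

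The sirtuins moved in both directions. Sirt2, a mainly cytoplasmic deacetylase, was by far the most abundant, at 52.4 and 51.3 FPKM with DMSO and 67.0 and 68.8 FPKM with risperidone. Both risperidone libraries were higher, and Sirt2 rose by 0.49 (SE 0.049, adjusted p = 8.23e-06), or by 0.24 with limma on TPM. Sirt4, a mitochondrial enzyme, was at 8.15 and 8.93 FPKM and then 5.25 and 4.64 FPKM. It fell by 0.65 (SE 0.139, adjusted p = 0.00182) with no overlap. Sirt7, the nucleolar sirtuin, went from 19.5 and 21.2 FPKM to 13.7 and 15.4 FPKM and fell by 0.36 (SE 0.074, adjusted p = 0.00144). Sirt3, the main mitochondrial deacetylase, and Sirt6, a nuclear H3K9 deacetylase, did not pass the test (0.02 and 0.15). With a library left out Sirt6 ranged from 0.037 to 0.256.

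Sirt1, which is known to repress PPARγ, was too low for the main test at a mean under 1 FPKM. Its counts were 79 and 82 with DMSO and 37 and 20 with risperidone, so both treated libraries were lower. Without the filter on low genes its log2 fold change was -1.40 (edgeR adjusted p = 0.0172). Sirt5, a mitochondrial desuccinylase, had 17, 25, 16 and 13 counts, and its treatments did not overlap although the closest libraries differed by 1 count.

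The flavin-dependent demethylases showed no change that passed. Kdm1a, the H3K4 demethylase of the CoREST complex, was at 38.7 and 37.9 FPKM with DMSO and at 35.3 and 34.5 FPKM with risperidone, a log2 fold change of -0.04 (SE 0.049, adjusted p = 0.475). It passed as lower when libraries were scaled by their totals alone and with limma on FPKM or TPM. Kdm1b, its relative, was at 2.88 to 3.51 FPKM (-0.07, adjusted p = 0.615), and its sign turned without risperidone replicate 1.

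Of the 13 Jumonji demethylases tested, 7 fell (53.8%, beside 32.2% of all genes) and 3 rose (23.1%, beside 32.1%). The median log2 fold change was -0.15, or -0.26 without risperidone replicate 1 and -0.039 with offsets for length. With limma on TPM it was -0.41 (10 lower, 2 higher), where 51.7% of all genes were lower and 15.0% higher. Kdm3a (chr6:71588970-71632990), which removes mono- and dimethyl marks from H3K9 and is needed in mice for normal fat metabolism, had the highest mean level of the group over the 4 libraries, though with risperidone Kdm4b lay above it. Kdm3a was at 74.0 and 74.8 FPKM with DMSO and at 37.1 and 39.8 FPKM with risperidone. The treatments were far apart, and Kdm3a fell by 0.90 (SE 0.050, adjusted p = 1.36e-07), or 1.86-fold. Its close relative Kdm3b was at 13.3 FPKM in both DMSO libraries and at 11.8 and 11.7 FPKM with risperidone, which did not pass the test (-0.09, adjusted p = 0.178) but passed as lower with scaling by library totals and with limma on FPKM or TPM.

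The Kdm2 enzymes, which demethylate H3K36 and bind unmethylated CpG islands, both fell. Kdm2a went from 42.1 and 41.1 FPKM to 24.0 and 25.7 FPKM (-0.64, SE 0.049, adjusted p = 1.11e-06). Kdm2b was lower in level, at 6.86 and 7.37 FPKM and then 4.21 and 4.45 FPKM (-0.58, SE 0.082, adjusted p = 0.000102). In both genes the treatments were clearly apart. Kdm2b shares 627 bases with its neighbour Rnf34, and how shared reads were split is uncertain.

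The Kdm4 enzymes, which remove H3K9 and H3K36 trimethyl marks, split. Kdm4a was at 25.1 and 24.1 FPKM and then 16.4 and 17.3 FPKM, a fall of 0.44 (SE 0.056, adjusted p = 4.75e-05). Kdm4b was at 38.5 FPKM in both DMSO libraries and at 49.1 and 53.0 FPKM with risperidone, a rise of 0.51 (SE 0.048, adjusted p = 4.93e-06). Neither gene had overlapping treatments, and the rise of Kdm4b was 0.26 with limma on TPM. Kdm4c, at 10.8 to 12.8 FPKM, overlapped between treatments (-0.04, adjusted p = 0.662) and passed as lower with limma on TPM (-0.25).

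The Kdm5 enzymes demethylate H3K4. Kdm5b was at 36.9 and 36.8 FPKM with DMSO and at 26.5 and 27.7 FPKM with risperidone. It fell by 0.35 (SE 0.046, adjusted p = 5.55e-05) without overlap. Kdm5a was at 19.9 and 17.9 FPKM and then 15.3 and 15.7 FPKM (-0.13, adjusted p = 0.0359). That call did not hold without DMSO replicate 1 (-0.081), without risperidone replicate 1 (-0.13), in the replicate block, without the filter or with DESeq2, and with offsets for transcript length the value was 0.05. Kdm5c was at 22.7 and 21.9 FPKM and then 23.3 and 22.4 FPKM, with overlapping treatments. Its rise of 0.22 on TMM-normalised counts (adjusted p = 0.00162) did not pass with limma on FPKM, and on TPM it was -0.11. Kdm5d, on the Y chromosome, had 0, 0, 0 and 2 counts.

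Kdm6a and Kdm6b demethylate H3K27. Kdm6a went from 13.5 and 13.7 FPKM to 9.21 and 10.7 FPKM and fell by 0.36 (SE 0.073, adjusted p = 0.00136). Kdm7a, which demethylates H3K9 and H3K27, went from 15.1 and 15.3 FPKM to 20.3 and 20.97 FPKM. It rose by 0.53 (SE 0.045, adjusted p = 2.39e-06), and both risperidone libraries lay above both DMSO libraries. The rise was 0.29 with limma on TPM. Kdm6b was at 11.2 and 10.5 FPKM and then 9.95 and 8.44 FPKM (-0.15, adjusted p = 0.133). It passed as lower without risperidone replicate 1 (-0.28), in the replicate block (-0.15), with crossed pairing, with scaling by library totals (-0.24) and with limma on TPM (-0.37). Kdm8 had 10 to 25 counts per library and was not tested.

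The KMT2 and SETD1 genes fell in 5 of 7 cases (71.4%, beside 32.2% of all genes) and rose in 1 (14.3%, beside 32.1%). The median log2 fold change was -0.46, or -0.21 with offsets for length. Apart from Kmt2e, which is counted here by its name, these enzymes methylate H3K4 within COMPASS complexes. Kmt2e (chr5:23433036-23504235), a SET protein without well-established methyltransferase activity, was at 18.6 and 19.0 FPKM with DMSO and 7.10 and 8.61 FPKM with risperidone. All risperidone values were under all DMSO values, and it fell by 1.05 (SE 0.070, adjusted p = 4.31e-07). Kmt2e shares 972 bases with its neighbour Srpk2. Setd1b (chr5:123142040-123168630), which with Setd1a places trimethyl marks at promoters, was at 5.97 and 6.09 FPKM and then 2.72 and 2.99 FPKM. It fell by 0.98 (SE 0.062, adjusted p = 2.86e-07). Setd1a had the highest mean level of the group over the 4 libraries, though Kmt2e lay above it with DMSO. At 15.0 to 15.4 FPKM its treatments overlapped and it did not pass the test (0.07, adjusted p = 0.263), but it passed as higher with offsets for length (0.17). Of its bases, 3527 also belong to the overlapping transcript Gm49388.

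Kmt2d and Kmt2c monomethylate H3K4 at enhancers, and Kmt2d is required for adipogenesis in mice. Kmt2d was at 6.97 and 6.86 FPKM with DMSO and at 4.58 and 4.56 FPKM with risperidone, a fall of 0.50 (SE 0.047, adjusted p = 5.00e-06). Kmt2c went from 6.28 and 5.57 FPKM to 3.82 and 4.26 FPKM and fell by 0.46 (SE 0.075, adjusted p = 0.000281). Kmt2a, which acts at developmental genes, went from 10.3 and 9.39 FPKM to 7.01 and 7.39 FPKM and fell by 0.35 (SE 0.055, adjusted p = 0.000216). These transcripts are among the longest measured, and with offsets for length the falls were 0.22, 0.21 and 0.11 and still passed. Kmt2b, the relative of Kmt2a, was at 9.25 and 9.37 FPKM and then 10.7 and 10.6 FPKM. It rose by 0.28 (SE 0.058, adjusted p = 0.00141), and with limma on TPM the difference of 0.047 did not pass. Summed over the 7 genes, Kmt2e with its large fall included, the level was 72.7 and 71.3 FPKM with DMSO. With risperidone it was 50.9 and 53.7 FPKM, a ratio of 0.726.

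The H4K20 methyltransferases went in opposite directions. Kmt5a, which adds the first methyl group, was the more abundant, at 52.6 and 51.5 FPKM with DMSO and 75.8 and 70.2 FPKM with risperidone. It rose by 0.59 (SE 0.053, adjusted p = 3.62e-06), or by 0.34 with limma on TPM. Kmt5b (chr19:3767362-3818303), which adds the further methyl groups, was at 11.6 and 11.4 FPKM and then 4.47 and 5.77 FPKM. It fell by 1.07 (SE 0.091, adjusted p = 2.49e-06). In neither gene did the treatments overlap. Kmt5c, which shares the task of Kmt5b, was at 6.85 and 6.61 FPKM and then 5.47 FPKM in both risperidone libraries. It did not pass the test (-0.19, adjusted p = 0.173), and ranged from -0.25 to -0.12 with a library left out. It passed as lower with limma on FPKM or TPM (-0.41 on TPM). Kmt5a has a similar transcript, Gm8770, with 92.1% identity over 940 bases.

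Among the other SET enzymes, Setd6 (chr8:95715634-95721507), which methylates the RelA subunit of NF-κB, was at 12.3 and 11.3 FPKM with DMSO and at 24.4 and 21.8 FPKM with risperidone. Both risperidone libraries were far above both DMSO libraries. The rise of 1.06 (SE 0.081, adjusted p = 1.14e-06), or 2.09-fold, was the largest of the 51 enzymes, and between 0.97 and 1.15 with any library left out. Gm5405 matches 609 bases of Setd6 at 93.3% identity. Setd3, an actin histidine methyltransferase, was the most abundant of this group, at 49.4 and 45.2 FPKM and then 62.0 and 61.2 FPKM. It rose by 0.47 (SE 0.052, adjusted p = 1.81e-05), and by 0.24 with limma on TPM, and has near-identical transcripts Gm14026 (98.0%) and Gm7114 (95.3%).

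Setd7, a monomethyltransferase for H3K4 and other proteins, went from 38.5 and 36.9 FPKM to 21.2 and 22.8 FPKM. The risperidone libraries were well below, and it fell by 0.68 (SE 0.051, adjusted p = 9.33e-07). Setd2, which places the H3K36 trimethyl mark along transcribed genes, was at 21.5 and 20.2 FPKM and then 15.6 and 15.4 FPKM. Its fall was 0.33 (SE 0.050, adjusted p = 0.000147) and 0.20 with offsets for length. Setd5 was at 36.9 to 41.0 FPKM and did not pass (0.04, adjusted p = 0.505), while it passed as higher with offsets for length (0.15) and as lower with limma on TPM (-0.22). Setd4, with 13 to 33 counts, was not tested.

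**Figure D3:**
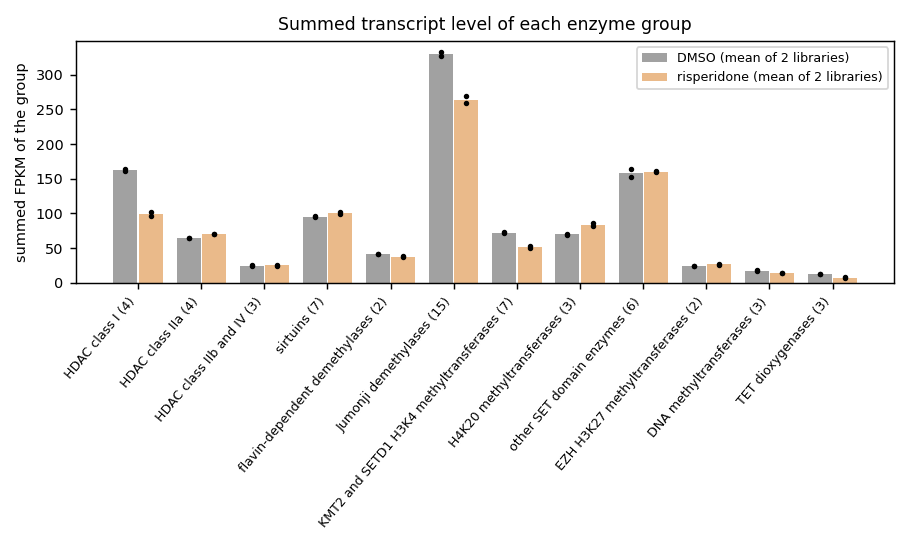
Summed FPKM of each enzyme group (number of genes in brackets), with bars at the mean of 2 libraries per treatment and points for the single libraries. The ratio of risperidone to DMSO was 0.571 for the TET dioxygenases, 0.606 for the class I deacetylases, 0.726 for the KMT2 and SETD1 enzymes, 0.780 for the DNA methyltransferases, 0.801 for the Jumonji demethylases and 0.908 for the flavin-dependent demethylases, lay between 1.01 and 1.09 for the 5 groups not named here, and was 1.19 for the H4K20 methyltransferases.

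Ezh2 and Ezh1 are the alternative catalytic subunits of PRC2, which methylates H3K27. Ezh2 was at 12 and 12.8 FPKM with DMSO and at 15.6 and 14.4 FPKM with risperidone. It rose by 0.37 (SE 0.067, adjusted p = 0.000609), and with limma on TPM the difference was 0.13 and did not pass. Ezh1 was at 12.5 and 11.97 FPKM and then 11.5 and 11.9 FPKM, slightly lower in both risperidone libraries. On TMM-normalised counts its log2 fold change was 0.03 (adjusted p = 0.680), and with limma on TPM it passed as lower (-0.20). In DMSO the 2 genes were at like levels, and with risperidone Ezh2 lay above Ezh1.

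Dnmt3a and Dnmt1 were lower. Dnmt3a, a de novo methyltransferase, was at 10.4 and 10.5 FPKM with DMSO and at 7.79 and 7.67 FPKM with risperidone. It fell by 0.35 (SE 0.053, adjusted p = 0.000169), and by 0.19 with offsets for length. Dnmt1, which copies methylation after replication, was at 6.70 and 7.10 FPKM and then 5.58 and 5.99 FPKM (-0.16, SE 0.063, adjusted p = 0.0468). This call did not hold without DMSO replicate 1 (-0.20), DMSO replicate 2 (-0.12) or risperidone replicate 1 (-0.11), with DESeq2, in the replicate block, without the filter or with offsets for length. Dnmt3b had 12 to 18 counts in each library, and its treatments overlapped. Of 14 proliferation genes tested, 5 were higher (35.7%, beside 32.1% of all genes) and 3 were lower (21.4%, beside 32.2%). Fewer were lower without DMSO replicate 2, and 2 were higher and 4 lower with limma on TPM. The list summed to 102 and 104 FPKM with DMSO and to 95.4 and 96.0 FPKM with risperidone.

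The Tet genes had the lowest ratio of summed levels among the groups, at 12.87 and 12.95 FPKM with DMSO and 6.94 and 7.81 FPKM with risperidone (0.571). Tet3 (chr6:83362373-83457208) was the most abundant, at 8.72 and 8.95 FPKM and then 3.78 and 4.51 FPKM. Its values were wholly apart, and it fell by 0.998 (SE 0.077, adjusted p = 1.25e-06), staying between -1.12 and -0.88 with any library left out. Tet2 was at 4.04 and 3.88 FPKM and then 3.08 and 3.24 FPKM, a fall of 0.23 (SE 0.062, adjusted p = 0.00693). That call did not hold without DMSO replicate 1 (-0.20), with DESeq2 or with offsets for length (-0.080). Tet1 had 19 and 23 counts with DMSO and 8 and 7 with risperidone and was below the filter. Without the filter its log2 fold change was -1.38 (edgeR adjusted p = 0.0491).

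The enzyme transcripts were longer than most. Their median effective length was 4525 bases, against 2705 bases over all tested genes, and 35 of 51 were above that median. Split by length into 5 equal bins, the bin of the longest genes had 44.5% lower and 24.7% higher genes, with a median log2 fold change of -0.11. The 26 enzymes in that bin had a median of -0.34, with 17 lower and 4 higher. With offsets for length fitted over all genes, the median of the enzymes moved from -0.16 to -0.065, and 23 were lower and 13 were higher, beside 31.9% and 33.4% of all genes. Kdm5a, Dnmt1 and Tet2 did not pass the test with these offsets. The part of transcript length in single calls was not tested further.

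**Figure D4:**
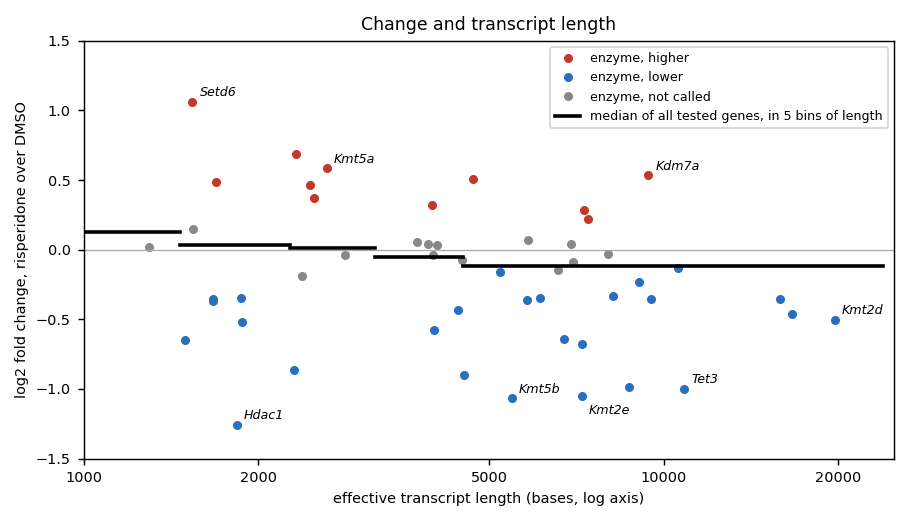
Log2 fold change (risperidone over DMSO) of the 51 enzyme genes against effective transcript length in bases (log axis), with black lines at the median of all tested genes in each of 5 equal bins of length. The median of all genes runs from 0.12 in the shortest bin to -0.11 in the longest, which holds 26 of the enzymes.

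The genes that work with these enzymes were read from the same test. Over all 12 partner lists, 59 of 159 genes tested were lower (37.1%, beside 32.2% of all genes) and 37 were higher (23.3%, beside 32.1%), with a median log2 fold change of -0.04 (-0.077 without DMSO replicate 1, -0.060 without DMSO replicate 2, -0.068 without risperidone replicate 2). With limma on TPM these numbers were 103 lower and 17 higher, where 51.7% of all genes were lower and 15.0% were higher. Of the histone acetyltransferases, which oppose the deacetylases, 10 of 18 fell (55.6%, beside 32.2% of all genes). A further 3 rose (16.7%, beside 32.1%), and the median was -0.31. With limma on TPM 14 fell and 3 rose (-0.53), beside 51.7% and 15.0% of all genes. With offsets for length 10 fell and 5 rose (-0.22). Kat6a, the catalytic subunit of the MOZ complex, was at 16.2 and 15.9 FPKM with DMSO and 7.74 and 8.03 FPKM with risperidone (-0.99, SE 0.054, adjusted p = 1.23e-07). Hat1, which acetylates newly made histone H4, went from 28.6 and 29.1 FPKM to 50.4 and 50 FPKM (0.90, SE 0.063, adjusted p = 6.10e-07). Neither overlapped between treatments, which was a condition for naming them. The coactivators Ep300 (-0.56) and Crebbp (-0.67) were also lower.

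In the corepressor complexes that hold Hdac1, Hdac2 and Hdac3, 12 of 34 subunits fell (35.3%) and 7 rose (median -0.05, and -0.012 without DMSO replicate 2), a share of falls near the 32.2% of all genes. In that list 23 fell and 3 rose with limma on TPM, where 51.7% of all genes were lower. Arid4a, a Sin3 subunit, was at 6.40 and 7.02 FPKM and then 3.40 and 3.42 FPKM (-1.08, SE 0.085, adjusted p = 1.36e-06). Brms1l, another Sin3 subunit, was at 11.5 and 12.8 FPKM and then 6.07 and 6.76 FPKM (-0.83). Both were lower in each risperidone library, and a lack of overlap was a condition for naming them. The corepressor scaffold Ncor1 rose (0.24).

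Among 15 COMPASS subunits, 6 fell (40.0%, beside 32.2% of all genes) and 5 rose (33.3%, beside 32.1%), with a median of -0.04. Fewer subunits rose with any of the libraries left out. The median was then -0.0055 (DMSO replicate 1), -0.10 (DMSO replicate 2), -0.0023 (risperidone replicate 1) or -0.071 (risperidone replicate 2). Without the filter, with DESeq2 or with limma on TPM 1 rose. Pagr1a, found with Kmt2c and Kmt2d, fell by 0.75 (15.8 and 16.6 FPKM, then 8.70 and 9.25 FPKM), and Hcfc2 rose by 0.63 (14.4 and 12.6 FPKM, then 22.2 and 20.7 FPKM). Among 6 PRC2 subunits, 3 rose and 1 fell (median 0.07, and 0.040 without risperidone replicate 1). Beside Ezh2, the core subunits Eed (0.33) and Suz12 (0.21) rose. Of the accessory subunits, Phf1 rose by 0.51 (10.2 and 10.9 FPKM, then 14.3 and 13.8 FPKM) and Mtf2 fell by 0.76 (10.3 and 10.8 FPKM, then 5.71 and 5.97 FPKM). With limma on TPM the PRC2 list gave 1 higher and 3 lower (median -0.16). All genes had a median of -0.22 there, with 51.7% lower and 15.0% higher.

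All 3 tested MEF2 factors, the partners of class IIa deacetylases, rose (beside 32.1% of all genes), with a median of 0.57. Fewer passed without DMSO replicate 1, DMSO replicate 2 or risperidone replicate 2. With limma on FPKM or TPM 2 of 3 passed. Mef2d was at 31.8 and 33.3 FPKM with DMSO and 45.4 and 45.1 FPKM with risperidone (0.57, SE 0.046, adjusted p = 1.68e-06). In the list of DNA methylation readers and demethylation genes, 5 of 14 fell (35.7%, beside 32.2% of all genes). A further 3 rose (21.4%, beside 32.1%). The median was -0.06, and -0.11 without DMSO replicate 2. With limma on TPM 9 fell and 3 rose (-0.33), where 51.7% and 15.0% of all genes did. With offsets for length 3 fell and 3 rose. Gadd45b, a stress-induced gene linked to DNA demethylation, was at 14.5 and 15.2 FPKM and then 37.4 and 28.9 FPKM and rose by 1.26 (SE 0.112, adjusted p = 3.42e-06). Its relative Gadd45g was at 16.4 and 16.5 FPKM and then 11.1 and 6.75 FPKM and fell by 0.78 (SE 0.190, adjusted p = 0.00393), between -1.19 and -0.47 with a library left out.

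Cofactor supply genes changed in part. Among the genes of the S-adenosylmethionine cycle and acetyl-CoA supply, 2 of 10 fell and 1 rose, with 3 and 2 without risperidone replicate 2 and 7 and 1 with limma on TPM. Mat2a, which makes S-adenosylmethionine, was at 132 and 133 FPKM with DMSO and 75.01 and 87.2 FPKM with risperidone (-0.61, SE 0.063, adjusted p = 9.60e-06). Ahcyl1, a relative of S-adenosylhomocysteine hydrolase, went from 85.9 and 85.2 FPKM to 144 and 137 FPKM (0.84, SE 0.050, adjusted p = 2.06e-07). Both were apart between treatments, which was a condition for naming them. Of the NAD genes, 3 of 8 fell and 2 rose, but 1 rose without DMSO replicate 1, DMSO replicate 2 or risperidone replicate 1 and 0 rose with scaling by library totals or with limma on FPKM or TPM. Nnmt, which uses nicotinamide and S-adenosylmethionine, fell by 0.75 (51.6 and 53.0 FPKM, then 31.5 and 26.6 FPKM), and Nmnat2, an NAD-forming enzyme, fell by 0.31. Nampt, the main enzyme of NAD salvage, did not pass the test (-0.08).

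Of the acetyl- and methyl-lysine readers, 7 of 14 fell and 1 rose, and those that fell included Cbx6, a Polycomb reader (-0.81), and Brd1, a partner of acetyltransferases (-0.50). In that list 13 fell and 0 rose with limma on TPM, and 5 fell and 3 rose with offsets for length. Other Jumonji proteins fell in 6 of 12 cases and rose in 1, but 3 fell and 0 rose without DMSO replicate 1, 4 fell and 0 rose without DMSO replicate 2, and 3 fell with DESeq2. Among those that fell were Jmjd8 at -0.53 and Jmjd1c, a relative of Kdm3a, at -0.23, which did not pass without DMSO replicate 1 (-0.17) or with offsets for length. Protein arginine methyltransferases fell in 4 of 8 cases, among them Prmt2 (-0.998), and rose in 2, among them Prmt7 (0.65), or in 1 without DMSO replicate 2. Other histone lysine methyltransferases rose in 6 of 17 cases (35.3%, beside 32.1% of all genes), among them Smyd5 (0.70) and Smyd3 (0.69). They fell in 3 (17.6%, beside 32.2%). With limma on TPM that list gave 2 higher and 7 lower (median -0.15). All genes had a median of -0.22 there, with 51.7% lower and 15.0% higher.

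**Figure D5:**
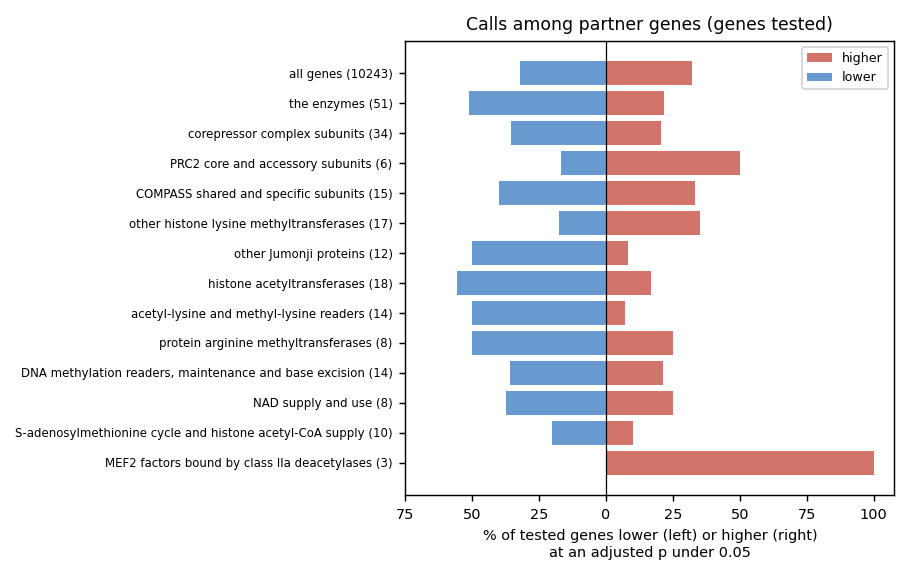
Share (%) of tested genes that were lower (blue, left) or higher (red, right) with risperidone in each partner list, with the number tested in brackets. The top bars give all 10243 genes (32.2% lower, 32.1% higher) and the 51 enzymes (51.0% lower, 21.6% higher).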

How the data were processed

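mRNA of DMSO and risperidone cultures was sequenced in 2 libraries each, and samples were grouped by their titles. The authors deposited an estimated count (expected count) without further normalization, an FPKM value and a TPM value for each gene and library. Values are whole-series columns, and the authors' average columns were not used. The submitters' processing notes list Bowtie2, RSEM, DESeq2 and build GRCm38.p6, with no versions or roles. Counting by strand is not stated in the sources used here.

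Rounded counts of genes averaging 1 FPKM or more were compared with edgeR 4.0.16 (R 4.3.3, TMM factors 0.963 to 1.03, quasi-likelihood F-test, two-sided, Benjamini-Hochberg over 10243 genes, threshold 0.05). The SE was taken as the size of the log2 fold change over the root of the F statistic. The biological coefficient of variation was 0.0468. Spearman's correlation between replicates was 0.990 for DMSO and 0.978 for risperidone. P-values measure the spread between libraries, not between single cultures.

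The members and gene lists were chosen with earlier results of these data known. Described in full were, per enzyme group, up to 4 genes with the largest changes that passed without overlap, the most abundant gene, and genes whose call or direction changed. Up to 2 such genes averaging 5 FPKM or more were named per partner list. Ep300, Crebbp, Ncor1, Eed, Suz12 and Nampt were added after their values were seen. Near-identical transcripts were searched with blastn 2.17.0 (at least 90% identity over 500 bases). Alternatives were no filter, a mean FPKM of 5 or more, other scalings, DESeq2 1.42.0, limma 3.58.1 on log2 FPKM (pseudocounts 1 and 0.1) and on log2 TPM (pseudocount 1), offsets for length and GC content, a replicate block, each library left out and a log2 fold change of 1 or more in size. The scripts were tested on simulated data. Figures were drawn with matplotlib 3.10.9. The planned comparison of protein sequences was not run, and 1 gene of a partner list is not reported here by name.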

Additional observations from a re-analysis of the deposited data

How the results depend on the processing

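The pairing of libraries by number could not be taken as given, since the deviations of same-numbered libraries correlated at -0.105 over only 2 pairs. With a replicate block 11 enzymes were higher and 25 lower, all genes gave 3292 and 3321 and partner genes 40 and 60. Crossed pairing, chosen after seeing the data as were the combined length and GC offsets, gave 11 and 27 enzymes, 3474 and 3519 genes and 40 and 62 partner genes. With each library left out, 11 to 11 enzymes were higher and 23 to 26 lower, with 2666 to 3310 and 2725 to 3350 of all genes and 30 to 38 and 48 to 59 partner genes. DESeq2 gave 11 higher and 22 lower enzymes. With limma on TPM, 7 enzymes, 1536 of all genes and 17 partner genes were higher, and 5292 of all genes and 103 partner genes were lower. With log2 fold changes of 1 or more in size, 1 enzyme, 267 of all genes and 2 partner genes were higher, and 3, 401 and 1 were lower. With limma on FPKM, 24 partner genes were higher at either pseudocount. The cause of these differences was not tested. Signs turned mostly for enzymes that had not passed the test. With length offsets the log2 fold changes of Hdac4, Sirt3, Kdm1b, Kdm3b, Kdm4c and Kdm5a were 0.104, -0.051, 0.015, 0.029, 0.038 and 0.046, and with length and GC offsets 0.097, -0.064, 0.040, 0.041, 0.064 and 0.072. With limma on TPM those of Hdac5, Hdac6, Sirt3, Sirt6, Kdm5c, Setd1a, Setd5 and Ezh1 were -0.191, -0.186, -0.201, -0.098, -0.106, -0.145, -0.224 and -0.199. For Hdac5, Hdac6, Sirt3, Setd1a, Setd5 and Ezh1, scaling by library size only gave -0.039, -0.054, -0.072, -0.022, -0.054 and -0.062, limma on FPKM with a pseudocount of 1 gave -0.050, -0.046, -0.066, -0.0062, -0.082 and -0.060, and with 0.1 gave -0.053, -0.049, -0.074, -0.0065, -0.084 and -0.064. Sirt3 was at -0.0035 when only genes averaging 5 FPKM or more were tested. With each library left out, Hdac4 ranged from -0.062 to 0.0040, Hdac6 from -0.0088 to 0.089, Sirt3 from -0.018 to 0.061, Kdm1b from -0.215 to 0.055, Kdm4c from -0.130 to 0.057, Setd5 from -0.00035 to 0.079 and Ezh1 from -0.0014 to 0.064. Depth limits genes with few counts, such as Hdac9 and Kdm5d.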
